A study of Homo sapiens with 26 samples.

Results

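A group of 10 genes of the G1 cell-cycle control were followed in U2OS cells, a human osteosarcoma line, kept in acidic or neutral medium: the D-type cyclins CCND1, CCND2 and CCND3, their kinases CDK4 and CDK6, the inhibitors CDKN1B, CDKN1C, CDKN2C and CDKN2D, and RB1. They were chosen by name from the 19704 genes of the deposited expression table, each was on 1 line of it, and 9 of the 10 members passed the filter on low values along with 11838 genes in all. The line carries a luciferase reporter of the clock gene Arntl. The pH 6.3 group had 13 libraries, 1 at each 4 h step up to 52 h after the change to acidic medium, and the pH 7.4 group had 13 libraries at the same hours in neutral medium. Both media were buffered with PIPES and HEPES (25 mM of each) and held 5% serum. They also held dexamethasone at 0.1 µM, which sets the clocks of the cells to a common phase, and the dishes of both media were sealed and held without added carbon dioxide. All samples come from this single tumour line, and each dish gave 1 library, so no hour has a replicate and each test measures the spread over hours. The dishes of 28 to 52 h and those of 4 to 24 h were seeded as separate sets, so values are also given within each set.

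D-type cyclins are made when growth signals reach a cell, and they bind and activate CDK4 and CDK6. The active kinases phosphorylate the retinoblastoma protein, which then releases E2F transcription factors that drive the genes of DNA replication. INK4 inhibitors (CDKN2C, CDKN2D) bind CDK4 and CDK6 themselves, while Cip/Kip inhibitors (CDKN1B, CDKN1C) bind complexes of cyclin and kinase. U2OS cells are known to lack the INK4 inhibitor p16, the product of CDKN2A.

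Levels are FPKM, fragments per kilobase of transcript and corrected for library size, and can therefore be ordered between genes. Estimated depth was 20.0 to 36.1 M fragments (M for mega) in all libraries except pH 6.3 at 8 h, with 11.3 M, and pH 7.4 at 12 h, with 9.82 M. In 4 other libraries the deviation of genes from their mean followed GC content beyond a limit of 0.5, with correlations across genes of 0.66 (pH 6.3 at 20 h), 0.78, -0.68 and -0.73 (pH 7.4 at 28, 44 and 48 h). Some libraries fell just short of that limit, among them pH 6.3 at 28 and 40 h (-0.488 and -0.497) and pH 7.4 at 24 h (0.468). Mitochondrially encoded genes held 10.6% to 16.6% of the FPKM at pH 6.3 and 16.7% to 22.0% at pH 7.4. Of 10 bone and mesenchymal genes, 6 were tested, 0 rose and 2 fell. RUNX2, SPARC, VIM and SPP1 did not pass, with RUNX2 at 24.8 and 24.0 FPKM, SPARC at 978 and 1021 FPKM and VIM at 649 and 602 FPKM (means at pH 6.3 and pH 7.4). The genes that fell were ALPL, with 1.07 and 3.42 FPKM (-1.03 on the log2 scale, lower at 13 of 13 hours), and COL1A1, with 82.3 and 136 FPKM (-0.78). The osteoblast factor SP7 was listed at 0 in all 26 libraries, and BGLAP, IBSP and COL1A2 averaged below 1 FPKM. Markers of other cell types summed to 4.28 to 7.94 FPKM at pH 6.3 and 5.90 to 12.6 FPKM at pH 7.4 for 8 epithelial genes, 8.41 to 18.8 FPKM and 14.1 to 40.9 FPKM for 8 leukocyte genes, and 0.547 to 1.74 FPKM and 1.02 to 3.32 FPKM for 6 endothelial genes. Among the 4 that were tested, all passed: EPCAM (-0.63) and CLDN4 (-1.37, at 0.805 and 3.62 FPKM) fell, LCP1 fell by 1.27 (9.14 and 23.1 FPKM), and CD68 rose by 1.02 (3.12 and 0.816 FPKM). CLDN3 was at 0 in all 26 libraries, and PTPRC, which marks leukocytes, averaged 0.232 and 0.345 FPKM. The part of these markers in the results below was not tested. In bulk RNA, a change in how many cells are in G1 and a change of RNA per cell cannot be told apart.

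Over the 13 hours, CCND2, CDKN1B and CDKN2D rose at pH 6.3, and CCND1, CDK4 and CDK6 fell. These are 3 of 9 members higher and 3 of 9 lower, against a background of 22.4% higher and 37.3% lower among all tested genes (59.7% in either direction), so the share of members that changed is near that background. The test was limma on log2(FPKM + 1) with the hour as a block and Benjamini-Hochberg adjustment over all tested genes. The median difference of the 9 members was 0.02 on the log2 scale, against -0.12 over all tested genes. CCND3, CDKN2C and RB1 did not pass the test over the whole course.

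**Figure D1:**
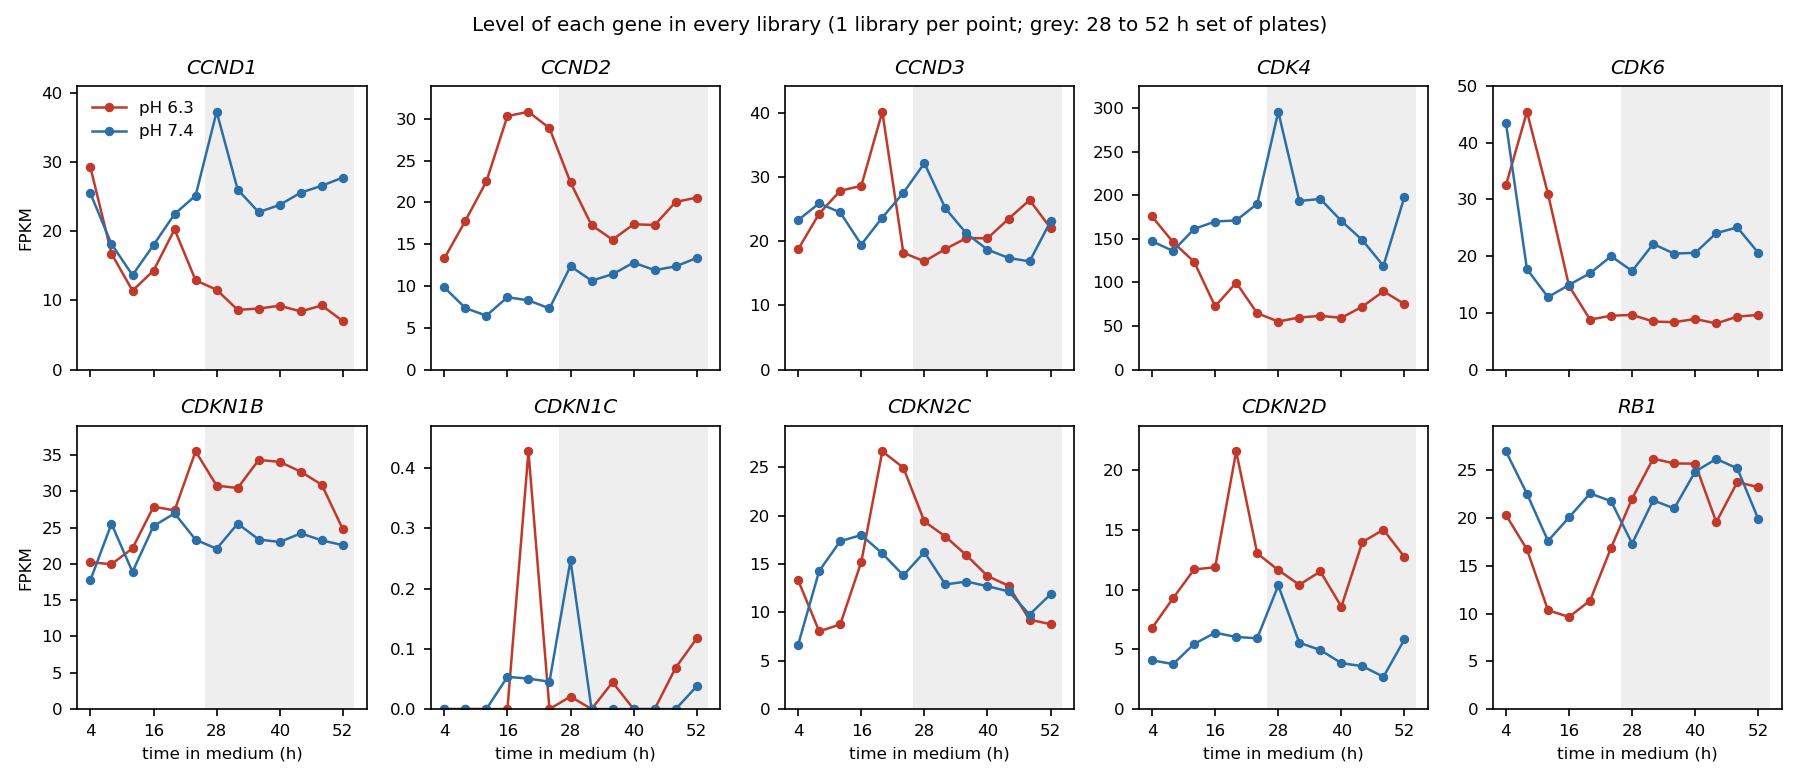
Level in FPKM (vertical axis, starting at 0, own scale for each gene) against hours in medium, 1 library per point, with pH 6.3 in red and pH 7.4 in blue; the grey area marks the 28 to 52 h set of plates. CCND1, CDK4 and CDK6 at pH 6.3 run below pH 7.4 throughout the grey area, CCND2 and CDKN2D run above at every hour, and CDKN1C stays below 0.5 FPKM in all 26 libraries.

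Among the D-type cyclins, CCND1 fell in acid. CCND1 (cyclin D1, ENSG00000110092, chr11:69641087-69654474, plus strand, GRCh38) was lowest at 7.005, had a median of 11.4 and was highest at 29.2 FPKM in the 13 pH 6.3 libraries, against 13.7, 25.2 and 37.3 FPKM at pH 7.4. The acid libraries were lower at 12 of 13 hours and higher at 4 h alone, and 9 of them lay below every neutral one. The difference was -0.92 ± 0.18 on the log2 scale (SE, adjusted p = 0.000319), with means of 12.9 ± 6.18 FPKM at pH 6.3 and 24.1 ± 5.69 FPKM at pH 7.4 (SD, n = 13 each).

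The CCND1 difference was larger in the later hours, which are also the other set of plates. At 4 to 24 h the 6 acid libraries ran from 11.4 to 29.2 FPKM with a median of 15.5, against 13.7 to 25.5 FPKM with a median of 20.3 at pH 7.4, and the difference of -0.25 did not pass limma's test (adjusted p = 0.269). At 28 to 52 h the 7 acid libraries held 7.005 to 11.5 FPKM with a median of 8.82, against 22.7 to 37.3 FPKM with a median of 26.02 at pH 7.4. The groups then did not overlap, and the difference was -1.49 ± 0.08 (adjusted p = 1.67e-06). Late minus early, the acid difference changed by -1.23 ± 0.18 (limma interaction, adjusted p = 0.000799). The highest neutral value, 37.3 FPKM at 28 h, came from the library whose deviations followed GC content most strongly. Without the 6 libraries of low depth or strong GC dependence and their partners, the acid difference over the remaining 7 hours was -0.99 (adjusted p = 0.0053), and the late-minus-early difference was -1.13 with an adjusted p of 0.0809.

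CCND2 went the other way. CCND2 (cyclin D2, ENSG00000118971, chr12:4273772-4305350, plus strand) had a minimum of 13.3, a median of 20.1 and a maximum of 30.9 FPKM at pH 6.3, against 6.45, 10.6 and 13.4 FPKM at pH 7.4. It was higher in acid at 13 of 13 hours, as were 4.43% of all tested genes (no member was lower at all 13, as 8.19% of genes were), and 12 acid libraries exceeded every neutral one, the exception being 4 h. The difference was 0.97 ± 0.15 on the log2 scale (adjusted p = 5.21e-05 by limma), with means of 21.1 ± 5.71 FPKM and 10.2 ± 2.37 FPKM at pH 6.3 and pH 7.4 (SD, n = 13 each).

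The rise of CCND2 was larger in the first day, from 8 h on. In acid the level was 13.3 FPKM at 4 h, 22.5 at 12 h, 30.3 at 16 h, 30.9 at 20 h and 28.9 at 24 h, while the neutral libraries of those hours held 9.83, 6.45, 8.66, 8.28 and 7.32 FPKM. The acid-to-neutral ratio was 1.35 at 4 h, 2.42 at 8 h and 3.49 to 3.95 at 12 to 24 h, against 1.36 to 1.81 at 28 to 52 h. The groups did not overlap in either set of plates. The differences were 1.42 ± 0.21 at 4 to 24 h (adjusted p = 0.00337) and 0.58 ± 0.07 at 28 to 52 h (adjusted p = 0.000135), and the late-minus-early difference was -0.85 ± 0.22 (limma, adjusted p = 0.0161). That last value was -0.80 with an adjusted p of 0.205 without the 6 libraries of low depth or strong GC dependence and their partners. At pH 7.4 the level itself had a slope of 0.40 ± 0.13 log2 units per 24 h (limma, adjusted p = 0.0427), a call that was lost in 11 of the 13 fits that left out 1 hour. The neutral level was 6.45 to 9.83 FPKM at 4 to 24 h and 10.6 to 13.4 FPKM at 28 to 52 h, so that slope spans the change of plate set.

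CCND3 did not pass the test in either direction. CCND3 (cyclin D3, ENSG00000112576, chr6:41934933-42050357, minus strand) had a minimum of 16.9, a median of 22.1 and a maximum of 40.2 FPKM at pH 6.3, against 16.9, 23.3 and 32.2 FPKM at pH 7.4. The groups overlapped over almost their whole range, with acid higher at 6 hours and lower at 7. The difference was 0.02 ± 0.13 on the log2 scale (adjusted p = 0.911 by limma). The maximum of each group lay in a library with a strong GC dependence, pH 6.3 at 20 h and pH 7.4 at 28 h.

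The summed D-type cyclins differed in opposite directions in the 2 sets of plates, and their make-up differed between media. Summed CCND1, CCND2 and CCND3 came to 57.6 ± 13.05 FPKM at pH 6.3 and 57.3 ± 9.23 FPKM at pH 7.4 over the whole course (SD, n = 13 each). At 4 to 24 h the sum was 67.7 ± 12.7 FPKM in acid and 52.5 ± 6.35 FPKM in neutral medium (SD, n = 6 each), higher in acid at 5 of 6 hours. At 28 to 52 h it was 48.9 ± 3.84 FPKM and 61.3 ± 9.76 FPKM (SD, n = 7 each), lower in acid at all 7 hours. The medians in acid and neutral medium were closer, at 61.5 and 52.9 FPKM early and 49.2 and 55.8 FPKM late. The highest sums, 91.3 FPKM in acid at 20 h and 81.8 FPKM in neutral medium at 28 h, came from libraries with a strong GC dependence. The media were nearly equal at 24 h (59.99 and 60.01 FPKM) and at 48 h (55.75 and 55.78 FPKM). Over the whole course CCND1 made up 22.1% ± 8.44 of the sum in acid and 41.6% ± 4.59 in neutral medium, and CCND2 made up 36.8% ± 6.56 and 17.9% ± 3.54. CCND3 held 41.1% ± 6.05 and 40.5% ± 7.08. At 4 h, CCND1 still held 47.7% of the sum in acid and 43.4% in neutral medium, and by 12 h it held 18.5% and 30.6%. The ratio of CCND1 to CCND2 was 0.340 to 2.20 at pH 6.3, with 4 h alone above 1, and 1.86 to 3.44 at pH 7.4. These shares and ratios are descriptions and were not tested.

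**Figure D2:**
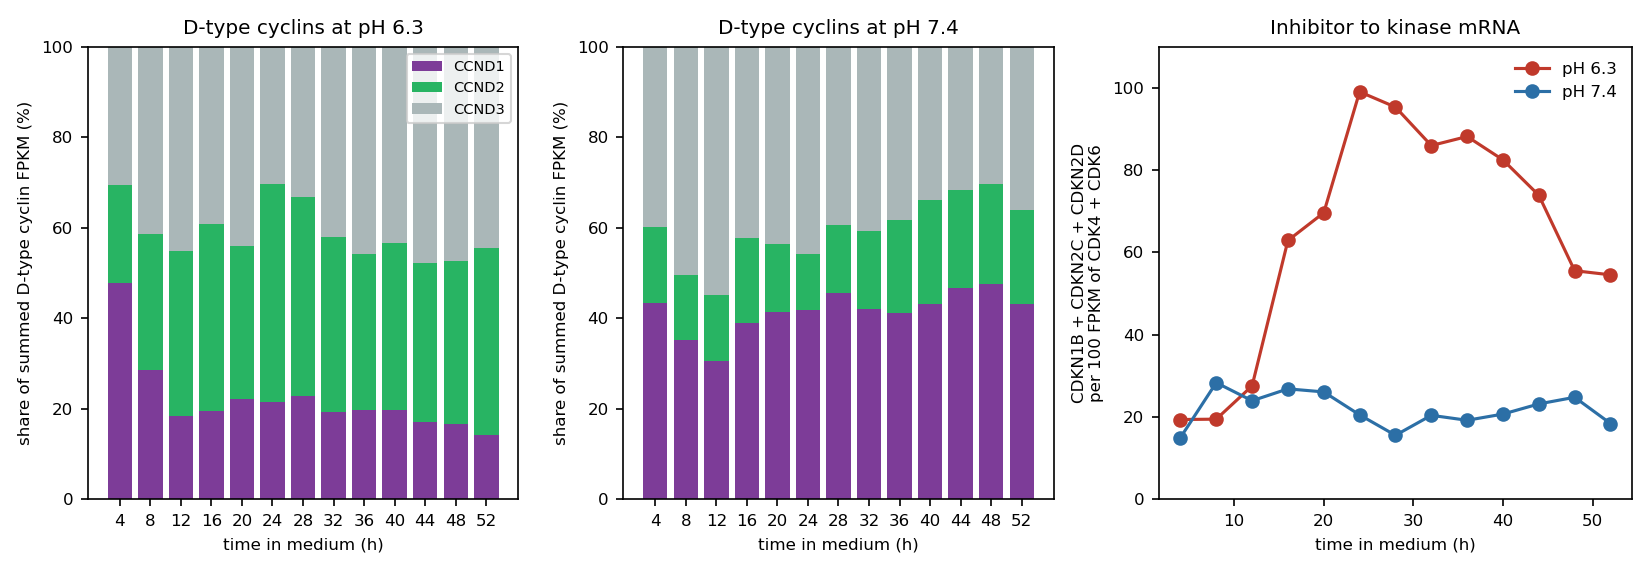
Left and middle: share of CCND1, CCND2 and CCND3 in their summed FPKM (percent, stacked bars) against hours in medium at pH 6.3 and pH 7.4. Right: summed CDKN1B, CDKN2C and CDKN2D per 100 FPKM of CDK4 plus CDK6 against hours, 1 library per point. CCND1 averages 22.1% at pH 6.3 and 41.6% at pH 7.4, and the inhibitor value at pH 6.3 leaves the neutral range after 12 h and reaches 99.1 at 24 h.

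Both kinases fell in acid. CDK4 (ENSG00000135446, chr12:57747727-57756013, minus strand), by far the most abundant member, had a minimum of 55.2, a median of 72.6 and a maximum of 176 FPKM at pH 6.3, against 119, 171 and 296 FPKM at pH 7.4. In all, 10 acid libraries lay below every neutral one, and acid was lower at 11 of 13 hours, with 4 and 8 h higher. The difference was -1.05 ± 0.19 on the log2 scale (adjusted p = 0.000186 by limma), and the means were 88.9 ± 37.7 FPKM and 177 ± 43.3 FPKM at pH 6.3 and pH 7.4 (SD, n = 13 each).

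In acid, CDK4 was at 176 FPKM at 4 h, 124 at 12 h, 64.7 at 24 h and 59.4 at 40 h, with a later value of 89.9 at 48 h. The neutral libraries of those hours held 147, 162, 190, 171 and 119 FPKM. The slope over time was -0.56 ± 0.17 log2 units per 24 h at pH 6.3 (limma, adjusted p = 0.0114) and 0.09 ± 0.17 at pH 7.4 (adjusted p = 0.789). Without the 4 h pair the acid slope was -0.41 with an adjusted p of 0.11. At 28 to 52 h the groups did not overlap, with 55.2 to 89.9 FPKM in acid and 119 to 296 FPKM in neutral medium. The difference was -0.59 ± 0.22 at 4 to 24 h (adjusted p = 0.0675) and -1.44 ± 0.20 at 28 to 52 h (adjusted p = 0.000245). Late minus early it was -0.84 ± 0.32 (adjusted p = 0.0812), and GC correction of each library brought this to -0.90 with an adjusted p of 0.00996. The neutral extremes, 296 FPKM at 28 h and 119 FPKM at 48 h, came from libraries with GC correlations of 0.78 and -0.73, and without the 6 libraries named above and their partners the whole-course difference was -1.25 (adjusted p = 0.00151).

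The promoter of CDK4 is shown because it holds the E-box CACGTG, the element bound by MYC and by the clock proteins CLOCK and BMAL1, more often than once. In the 250 bases upstream of the RefSeq start of CDK4 (GRCh38.p14, minus strand, chr12:57752311-57752560) the element occurred 3 times, and 28 of 35114 RefSeq promoters (0.08%) held at least 3, while 6.35% held at least 1. The E-boxes are in capitals within 30 bases each, 5′ to 3′ on the strand of the gene, with the first base of the element counted back from the start.
CDK4, -216, chr12:57752509-57752538: atgtcaagcggtCACGTGtgatagcaacag
CDK4, -196, chr12:57752489-57752518: atagcaacagatCACGTGgctgccatcgcc
CDK4, -101, chr12:57752394-57752423: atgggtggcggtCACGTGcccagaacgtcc
The longest GENCODE 29 transcript with that start begins 211 bases further upstream, so the elements nearer to the start lie in its first exon. GENCODE 29 puts the upstream end of the gene at chr12:57756013, so the window lies inside the gene. A match describes the letters and says nothing of binding. MYC mRNA itself was higher in acid, with 22.5 ± 11.9 FPKM at pH 6.3 and 13.2 ± 6.78 FPKM at pH 7.4 (SD, n = 13 each; 0.71 ± 0.11 on the log2 scale, adjusted p = 3.72e-05), and is named here because of the element and not by the rule for named genes.

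CDK6 crossed over. CDK6 (ENSG00000105810, chr7:92604921-92836594, minus strand) had a minimum of 8.13, a median of 9.50 and a maximum of 45.5 FPKM at pH 6.3, against 12.8, 20.5 and 43.5 FPKM at pH 7.4. It was higher in acid at 8 h, with 45.5 against 17.7 FPKM, and at 12 h, with 31.0 against 12.8 FPKM, and lower at the other 11 hours. Both of those pairs include a library of low depth. From 20 h on, every acid library lay between 8.13 and 9.64 FPKM, below every neutral library. The neutral group was highest at 4 h, with 43.5 FPKM, and ran from 12.8 to 25.1 FPKM afterwards.

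Over the whole course CDK6 fell by 0.61 on the log2 scale (SE 0.23, adjusted p = 0.0271 by limma). That call is the least stable of the 6: it was lost with quantile normalization (adjusted p = 0.0651), with GC correction (adjusted p = 0.0824) and in 7 of the 13 fits that left out 1 hour (adjusted p up to 0.0578). The late set was clear, with 8.13 to 9.64 FPKM at pH 6.3 and 17.4 to 25.1 FPKM at pH 7.4, no overlap, and a difference of -1.17 ± 0.09 (adjusted p = 7.83e-06). At 4 to 24 h the difference was 0.04 ± 0.31 (adjusted p = 0.938), and late minus early it was -1.21 ± 0.35 (adjusted p = 0.0267). Without the 8 h pair that last value was -0.96, without the 12 h pair -0.98, and without the 44 h pair -1.16, with adjusted p of 0.0617, 0.0656 and 0.0524. Without the low-depth and GC-dependent libraries and their partners it was -0.68 (adjusted p = 0.154). Within acid, the linear slope of CDK6 was -0.90 log2 units per 24 h (SE 0.20, adjusted p = 0.00106 by limma). The drop itself lay between 8 h (45.5 FPKM) and 20 h (8.81 FPKM), and the level then stayed within 8.13 to 9.64 FPKM.

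**Figure D3:**
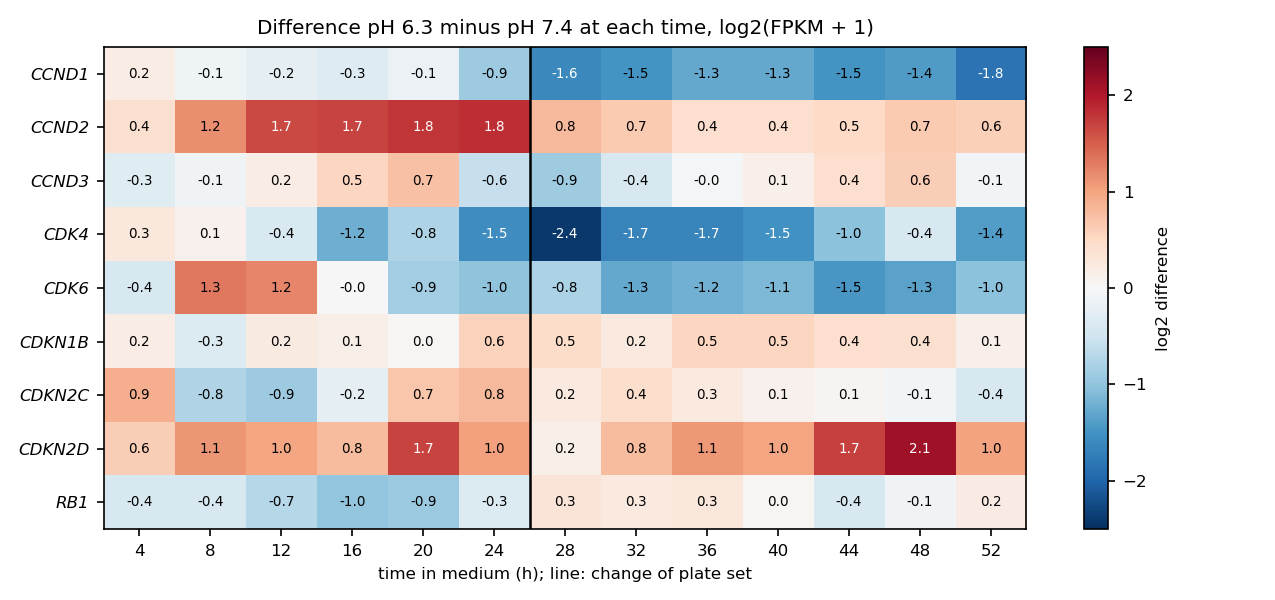
Difference pH 6.3 minus pH 7.4 in log2(FPKM + 1) for each of the 9 tested genes (down) at each hour (across), with red for higher and blue for lower at pH 6.3 and the change of plate set at the vertical line. CCND2 is red at all 13 hours with its deepest values at 12 to 24 h, CCND1 and CDK4 are blue from 12 h on, and CDK6 turns from red at 8 and 12 h to blue from 20 h.

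Of the Cip/Kip inhibitors, CDKN1B rose slightly and CDKN1C was close to absent. CDKN1B (p27, ENSG00000111276, chr12:12715058-12722371, plus strand) had a minimum of 20.0, a median of 30.5 and a maximum of 35.5 FPKM at pH 6.3, against 17.8, 23.3 and 27.0 FPKM at pH 7.4. Acid was higher at 12 of 13 hours, lower at 8 h, and 9 acid libraries exceeded every neutral one. The difference was 0.27 ± 0.08 on the log2 scale (adjusted p = 0.0112 by limma), from means of 28.5 ± 5.35 FPKM and 23.2 ± 2.58 FPKM (SD, n = 13 each). It passed at 28 to 52 h (0.39 ± 0.07, adjusted p = 0.00118) and not at 4 to 24 h (0.13 ± 0.15, adjusted p = 0.522), while the late-minus-early difference of 0.26 ± 0.15 did not pass (adjusted p = 0.262). With the mitochondrially encoded genes left out and the rest rescaled, the difference was 0.18 with an adjusted p of 0.0875.

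CDKN1C (p57, ENSG00000129757, chr11:2883213-2885773, minus strand) was listed at 0 in 8 of 13 libraries of each medium. The highest values were 0.428 FPKM at pH 6.3 (20 h) and 0.247 FPKM at pH 7.4 (28 h), both in libraries with a strong GC dependence. It did not reach a mean of 1 FPKM and was not tested.

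Of the INK4 inhibitors, CDKN2D rose at every hour. CDKN2D (p19, ENSG00000129355, chr19:10566462-10569059, minus strand) had a minimum of 6.79, a median of 11.7 and a maximum of 21.6 FPKM at pH 6.3, against 2.70, 5.45 and 10.4 FPKM at pH 7.4. In all, 10 acid libraries exceeded every neutral one, and the overlap came from the 28 h neutral library, whose deviations followed GC content. The next highest neutral value was 6.40 FPKM at 16 h, and the lowest acid value was 6.79 FPKM at 4 h. Other libraries with a strong GC dependence widened the gap, with 21.6 FPKM in acid at 20 h and 3.59 and 2.70 FPKM in neutral medium at 44 and 48 h. The difference was 1.08 ± 0.14 on the log2 scale (adjusted p = 9.07e-06 by limma), with means of 12.2 ± 3.60 FPKM and 5.27 ± 1.91 FPKM at pH 6.3 and pH 7.4 (SD, n = 13 each).

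The CDKN2D difference was 1.03 ± 0.18 at 4 to 24 h (adjusted p = 0.00602) and 1.12 ± 0.21 at 28 to 52 h (adjusted p = 0.00145). Late minus early it was 0.09 ± 0.28 (adjusted p = 0.871). The acid-to-neutral ratio at single hours ran from 1.12 at 28 h to 5.56 at 48 h, and the neutral library of 48 h held the lowest value, 2.70 FPKM, with a GC correlation of -0.73. Without the 6 libraries of low depth or strong GC dependence and their partners the difference was 0.90 (adjusted p = 0.00044).

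CDKN2C did not pass any test. CDKN2C (p18, ENSG00000123080, chr1:50960745-50974633, plus strand) had a minimum of 8.03, a median of 13.8 and a maximum of 26.6 FPKM at pH 6.3, against 6.67, 13.2 and 18.0 FPKM at pH 7.4. At 4 h the acid library held 13.3 FPKM against 6.67 FPKM. At 8 and 12 h the acid libraries held 8.03 and 8.76 FPKM against 14.3 and 17.4 FPKM, and at 20 and 24 h they held 26.6 and 25.0 FPKM against 16.1 and 13.8 FPKM. The pairs of 8, 12 and 20 h each include a library of low depth or strong GC dependence. Acid was higher at 8 hours and lower at 5, the groups overlapped, and the difference of 0.09 ± 0.15 on the log2 scale did not pass limma's test (adjusted p = 0.627).

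The CCAAT box is shown for CDKN2D and CDKN1B, the inhibitor genes that rose, since it is a common promoter element bound by the factor NF-Y; it was also present for CDKN2C and CCND3, which did not pass the test. In the 250 bases upstream of the RefSeq start it occurred once for CDKN2D (minus strand) and at 2 places for CDKN1B (plus strand); 32% of all RefSeq promoters held it. The element is in capitals. A GENCODE 29 transcript of CDKN1B begins 244 bases before that start, so both CDKN1B elements lie in its first exon.
CDKN2D, -234, chr19:10569196-10569225: gccacactctgaCCAATcaggagcgacgcg
CDKN1B, -174, chr12:12717182-12717211: tcacgcgaccagCCAATctcccggcggcgc
CDKN1B, -50, chr12:12717306-12717335: ccgccgccgcaaCCAATggatctcctcctc
Among the 10 members, 7 had a total of 12 RefSeq promoter windows. A member counted when any of its windows held the element. The shares of all promoters are per window, so member counts cannot be set directly against them. Searched on both strands and with no overlap between kinds, CACGTG was present for 2 of the 7 (CDK4 and CDKN2C), CCAAT for 4 (CDKN2D, CDKN1B, CDKN2C and CCND3), GGGCGG for 6 (42.6% of all promoters) and TGANTCA for 1 (RB1, 6.57% of all promoters). None held TTTCCCGC, TTTCGCGC, TTTGCCGC or TTTGGCGC (2.79% of all promoters), TGACGTCA (1.65%) or GTAAACA (2.98%) in these windows. The RB1 window, chr13:48476200-48476449, lies inside the gene as GENCODE 29 has it, so its matches and lack of matches do not describe the promoter at the start of RB1. By the same gene bounds, the windows of CDK4, CDKN1B and CCND3 and some of those of CDK6 and CDKN2C also lie inside their genes. GENCODE 29 thus has further starts upstream of these windows. CCND1, CCND2 and CDKN1C had no entry.

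RB1 was lower in acid in the first day. RB1 (the retinoblastoma protein, ENSG00000139687, chr13:48303726-48599436, plus strand) had a minimum of 9.65, a median of 20.3 and a maximum of 26.2 FPKM at pH 6.3, against 17.3, 21.9 and 27.0 FPKM at pH 7.4. Over the whole course the difference of -0.24 ± 0.12 on the log2 scale did not pass limma's test (adjusted p = 0.102), with acid lower at 8 hours and higher at 5. At 4 to 24 h the acid libraries held 9.65 to 20.3 FPKM, against 17.6 to 27.0 FPKM in neutral medium, and were lower at 6 of 6 hours. Of these 6, 5 lay below every neutral library of the same set.

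At 28 to 52 h RB1 held 19.6 to 26.2 FPKM in acid and 17.3 to 26.2 FPKM in neutral medium. The difference was -0.63 ± 0.15 at 4 to 24 h (adjusted p = 0.0176) and 0.09 ± 0.10 at 28 to 52 h (adjusted p = 0.441), and late minus early it was 0.72 ± 0.17 (limma, adjusted p = 0.0106). Without the 6 libraries of low depth or strong GC dependence and their partners, late minus early was 0.77 with an adjusted p of 0.0862. The linear slope of RB1 was 0.52 ± 0.13 log2 units per 24 h in acid (limma, adjusted p = 0.00175) and 0.00 ± 0.13 in neutral medium (adjusted p = 0.993). In acid the level was 20.3 FPKM at 4 h, 9.65 at 16 h and 16.9 at 24 h, then 19.6 to 26.2 at 28 to 52 h. That slope spans the change of plate set and does not describe a steady climb.

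**Figure D4:**
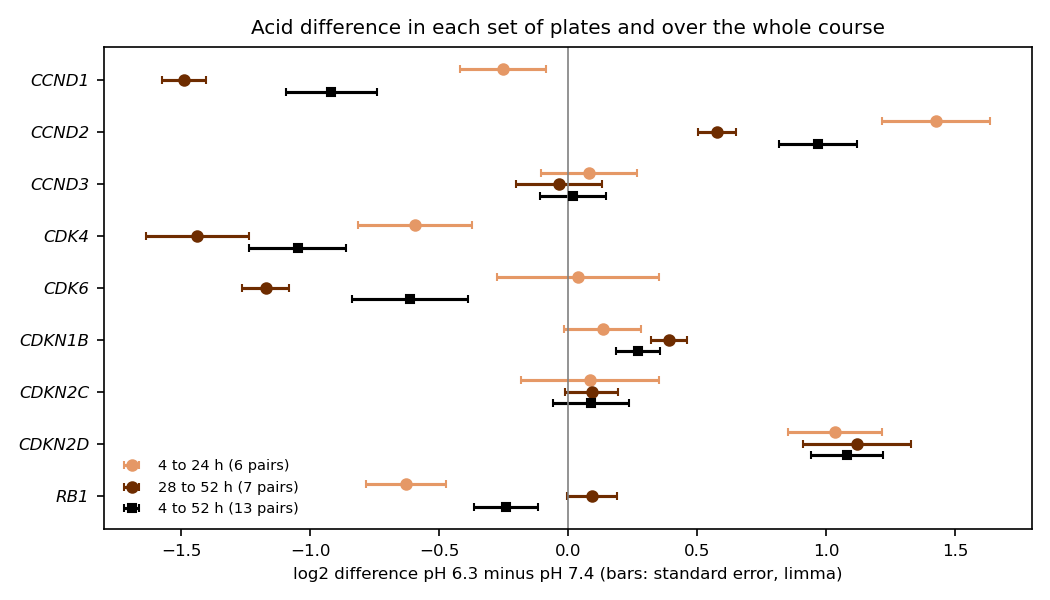
Difference pH 6.3 minus pH 7.4 on the log2 scale (horizontal axis, bars are standard errors) for the 9 tested genes at 4 to 24 h, at 28 to 52 h and over all 13 hours. CCND1 moves from -0.25 early to -1.49 late and CDK6 from 0.04 to -1.17, CCND2 from 1.42 to 0.58, and CDKN2D stays at 1.03 and 1.12.

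By set of plates, 2 members passed higher (CCND2, CDKN2D) and 1 lower (RB1) at 4 to 24 h, where 8.57% of all tested genes passed higher and 18.1% lower. At 28 to 52 h, 3 passed higher and 3 lower, where 27% and 36.4% of all genes did (63.3% in either direction). The late-minus-early test was passed by 4 members and by 17.1% of all genes. In the late set the acid difference was lower for CCND1, CCND2 and CDK6 and higher for RB1. Complete separation of the media at 4 to 24 h was seen for CCND2 and CDKN2D, both above (3.45% of all genes). At 28 to 52 h it was seen for CCND2 above (16.9% of all genes) and for CCND1, CDK4 and CDK6 below (23.4%). No member was separated completely over all 13 hours, where 1.28% of genes were above and 2.37% below. Each span of hours coincides with its own set of dishes, so time and plate set cannot be told apart here.

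Time trends within a medium were called for 5 members at pH 6.3, where 45% of all genes were called (19.2% declining), and for 1 at pH 7.4, where 14.7% were (8.17% climbing). At pH 6.3, CCND1 (-0.81 ± 0.11 log2 units per 24 h, adjusted p = 3.68e-06), CDK4 and CDK6 had negative slopes, and RB1 and CDKN1B had positive slopes. Each slope spans the change of plate set after 24 h, so these fits do not tell a trend from a step between sets. The CDKN1B slope of 0.24 ± 0.09 (adjusted p = 0.043) was lost in 9 of the 13 fits that left out 1 hour. No member had a called 24 h rhythm at pH 7.4 (0.0422% of all genes, 5 genes, had one), at pH 6.3 (0% of all genes) or in the difference between media (0.0169%). At an unadjusted p under 0.05 there was 1 member at pH 7.4 (CCND1), 3 at pH 6.3 (CCND1, CCND3 and RB1) and 2 for the difference (CCND3 and RB1), against 3.74%, 9.15% and 9.28% of all genes.

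The order of levels differed between media. At pH 6.3 the order of means was CDK4, CDKN1B, CCND3, CCND2, RB1, CDK6, CDKN2C, CCND1, CDKN2D and CDKN1C, and neighbours from CDKN1B down to CDKN2D differed by less than the larger SD of each pair. At pH 7.4 it was CDK4, CCND1, CDKN1B, CCND3, RB1, CDK6, CDKN2C, CCND2, CDKN2D and CDKN1C, and neighbours from CCND1 down to CDK6 differed by less than that SD. CCND1 thus stood at rank 8 in acid and rank 2 in neutral medium, and CCND2 at ranks 4 and 8.

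Set against the kinases, summed mRNA of CDKN1B, CDKN2C and CDKN2D was higher on average in acid. Summed CDK4 and CDK6 came to 105 ± 48.8 FPKM at pH 6.3, against 198 ± 41.8 FPKM at pH 7.4, and summed CDKN2C and CDKN2D to 27.1 ± 8.33 FPKM and 18.7 ± 4.48 FPKM (SD, n = 13 each). Per 100 FPKM of CDK4 and CDK6 there were 64.2 ± 27.7 FPKM of CDKN1B, CDKN2C and CDKN2D in acid and 21.7 ± 4.19 FPKM in neutral medium. The value in acid was 19.4 at 4 h, 62.9 at 16 h, 99.1 at 24 h and 54.6 at 52 h, while in neutral medium it stayed within 15.0 to 28.3 throughout. CDKN2D made up 45.8% ± 9.88 of the INK4 sum in acid and 28.0% ± 5.88 in neutral medium. CDKN1A, which is not a member and averaged 168 FPKM at pH 6.3 and 44.7 FPKM at pH 7.4, is not in these sums. They thus do not give the balance of all inhibitors to kinases. These sums are descriptions of mRNA, with no test.

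Across the 26 libraries, pairs of members were correlated. On log2(FPKM + 1), Pearson's r was 0.85 between CCND1 and CDK4, 0.77 between CCND2 and CDKN2D, 0.67 between CDK4 and CDK6, -0.82 between CDK6 and CDKN1B and -0.76 between CDK4 and CDKN1B. All points share the 2 media, the plate sets and library composition, so these are descriptions. Within a medium (13 libraries each), r at pH 6.3 and pH 7.4 was 0.71 and 0.49 for CCND1 and CDK4, 0.68 and -0.10 for CCND2 and CDKN2D, 0.85 and -0.29 for CDK4 and CDK6, -0.88 and -0.37 for CDK6 and CDKN1B, and -0.88 and 0.02 for CDK4 and CDKN1B. The most alike gene was NRP1 for CCND1 (r = 0.944), FZD5 for CCND2 (0.923), KLHL17 for CCND3 (0.877), GAREML for CDK4 (0.984) and USP31 for CDK6 (0.966). It was CCDC28A for CDKN1B (0.898), KNSTRN for CDKN2C (0.898), CDK2AP2 for CDKN2D (0.971) and PPP6C for RB1 (0.935).

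The other genes of the pathway are given as counts, to be read against 22.4% higher and 37.3% lower among all tested genes. The kinases and cyclins of the next step were mixed. Of 7 genes of cyclins E and A and CDK2, 1 passed higher and 3 lower. CCNA2, cyclin A2, averaged 110 ± 27.7 FPKM at pH 6.3 and 66.8 ± 11.2 FPKM at pH 7.4 (0.69 on the log2 scale, adjusted p = 7.39e-05). CCNE2, a cyclin E, averaged 2.68 ± 1.45 FPKM and 7.96 ± 1.33 FPKM and was lower at 13 of 13 hours (-1.34, adjusted p = 1.66e-07). CDC25A, a phosphatase that activates CDK2, was also lower (-0.48, adjusted p = 0.000616).

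Of 4 other genes named as CDK inhibitors, 2 were tested and 1 rose. CDKN1A (p21, a Cip/Kip inhibitor) averaged 168 ± 49.7 FPKM at pH 6.3 and 44.7 ± 9.58 FPKM at pH 7.4 (1.83 ± 0.19, adjusted p = 1.18e-06), higher at 12 of 13 hours. CDKN3 averaged 99.5 ± 30.2 FPKM and 113 ± 11.6 FPKM and did not pass (adjusted p = 0.134). CDKN2A was at 0 in 20 of 26 libraries and CDKN2B in 16.

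Of 12 pocket proteins, E2F and DP factors, 10 fell, 1 rose and 1 did not pass, with a median of -0.68 on the log2 scale against -0.12 over all genes. RBL1, the pocket protein p107, averaged 4.00 ± 2.39 FPKM in acid and 12.2 ± 2.33 FPKM in neutral medium (-1.48, adjusted p = 3.18e-06), and E2F1 averaged 5.94 ± 6.27 FPKM and 13.6 ± 4.34 FPKM (-1.41, adjusted p = 0.000138). The one that rose was E2F4, known as a repressor E2F (0.60, adjusted p = 0.0058). Of 17 E2F target genes of replication, 13 fell, none rose and 4 did not pass, with a median of -0.81. E2F1 and CCNE1 stand in this list and in one of the lists above. Among them MCM4, a subunit of the replicative helicase, averaged 136 ± 90.4 FPKM at pH 6.3 and 292 ± 50.3 FPKM at pH 7.4 (-1.32, adjusted p = 5.98e-06).

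**Figure D5:**
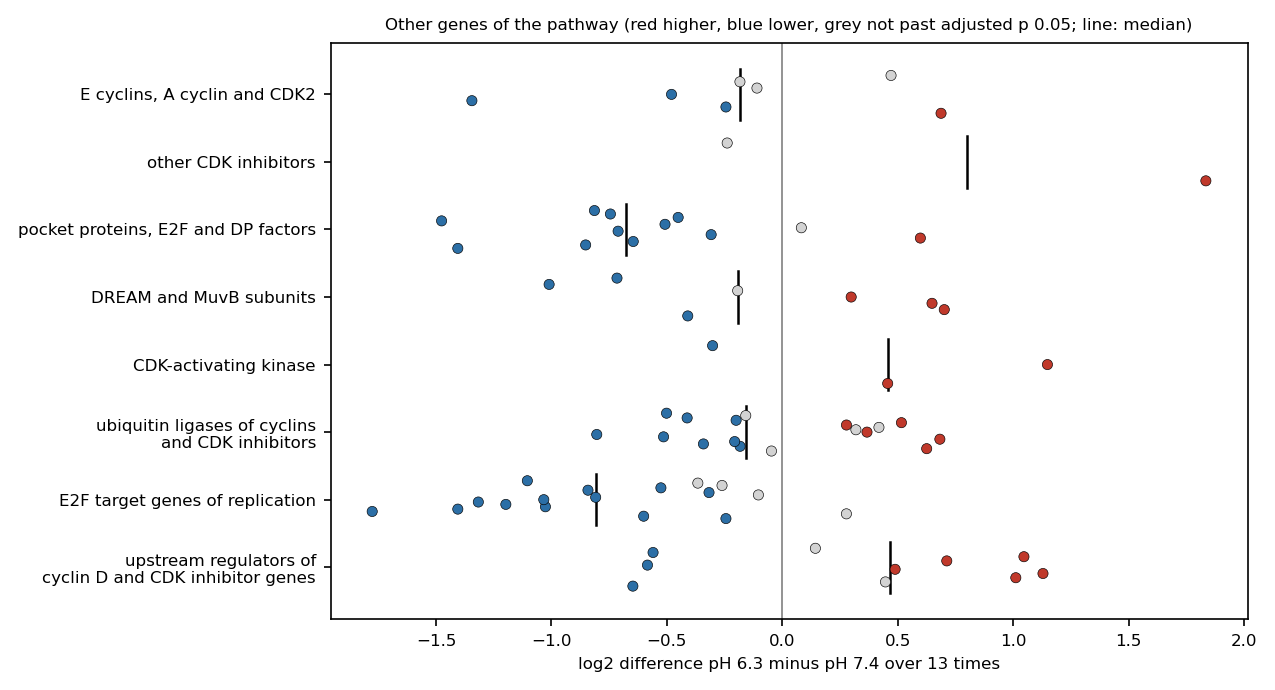
Difference pH 6.3 minus pH 7.4 over the 13 hours on the log2 scale (horizontal axis) for each tested gene of 8 lists of the pathway (down), with red for higher, blue for lower and grey for not past the test, and a line at the median of each list. The E2F target genes of replication have 13 blue and no red points, and CDKN1A stands at 1.83.

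The remaining lists were split. Of 7 genes in the DREAM and MuvB list, 3 rose (among them LIN37 at 0.70 and LIN52 at 0.65) and 3 fell (RBBP4 at -0.72, MYBL2 at -1.01 and FOXM1 at -0.41). MYBL2 and FOXM1 are partner factors and not core subunits. All 3 genes of the CDK-activating kinase passed: CDK7 rose by 1.15 (adjusted p = 9.07e-06) and CCNH by 0.46 (adjusted p = 0.00051), and MNAT1 changed by -0.30 (adjusted p = 0.0346). Of 17 ubiquitin ligase genes of cyclins and CDK inhibitors, 5 rose (DDB1 by 0.68 and CKS1B by 0.63 the most) and 8 fell (DTL by -0.80 and DET1 by -0.51 the most). Of 10 upstream regulators, 5 rose and 3 fell. FOXO3, a forkhead factor known to drive CDKN1B, rose by 1.13 (9.38 ± 1.92 FPKM in acid, 3.67 ± 0.40 FPKM in neutral medium, adjusted p = 3.43e-07), SMAD3 rose by 1.05 (adjusted p = 1.80e-06), and CTNNB1, beta-catenin, known to drive CCND1, fell by 0.65 (87.2 ± 13.6 FPKM in acid, 136 ± 15.0 FPKM in neutral medium, adjusted p = 4.32e-05). JUN was lower as well (-0.58, adjusted p = 0.0109). Whether any of these regulators acts on the members in these cells was not tested. The lists were chosen with results of these data known, so their counts are descriptions.

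Some loci overlap other genes, and the strand setting of the counting is not given in the sources used here, so those values are uncertain to that extent. CDK4 overlaps TSPAN31 (mean 30.3 FPKM) and MARCH9 (mean 7.22 FPKM) on the opposite strand, CCND1 overlaps LTO1, and CCND2 overlaps an antisense RNA and a gene on its own strand. RB1 overlaps LPAR6 (mean 0.064 FPKM) and RCBTB2 (mean 1.28 FPKM) on the opposite strand.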

How the data were processed

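RNA of U2OS cells was measured in 26 libraries, 13 per pH, prepared with a strand-preserving mRNA kit, per the labels' protocols. The authors deposited FPKM values in 1 table of 19806 lines. The submitters' processing notes name STAR, Cufflinks and hg38. Not given in the sources used here are versions, annotation and strand setting. Coordinates, overlaps and GC content came from GENCODE 29 (19545 identifiers matched), and promoter sequences from RefSeq (GRCh38.p14).

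Genes averaging 1 FPKM or more across libraries were tested as log2(FPKM + 1), so that changes of low genes are understated, with limma 3.58.1 (R 4.3.3; moderated two-sided tests with a mean-dependent prior, Benjamini-Hochberg at 0.05). For a symbol on several lines, the line with the highest mean was used. The acid difference was pH 6.3 minus pH 7.4 with the hour as a block, since both media of an hour were harvested together per the labels' protocols. That shared harvest is the source of the pairing; the deviations of the 2 libraries of an hour from their group means correlated between -0.51 and 0.42. The late-minus-early difference was tested as a pH by plate set interaction. Time slopes and rhythms came from 1 fit with a linear and a 24 h term per pH. Nothing says that dishes are independent cultures beyond separate plates, and p-values measure the spread over hours.

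To estimate depth, the step between low FPKM values was read in 1808 single-transcript genes of 1000 bases or more, with 1 fragment worth less in longer transcripts (length minus 200 bases). Between 87.7% and 94.4% of those values lay within 0.1 of a whole number. Depth multiples give whole numbers too, so the smallest fitting depth was taken: of the values at 1, 2 and 3 fragments, 54.7%, 28.3% and 17% lay at each, whereas a depth 3 times as large would place all of them at multiples of 3. As FPKM are not counts, no count test was run. A library was doubted when its depth was below 0.5 of the median or its GC correlation beyond 0.5, which held for 6 libraries and leaves 7 hours.

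The members, gene lists and rules were chosen with earlier results of these data known. Named genes were the members, up to 2 risers and 2 fallers per list, and the most alike gene of each member; some are not reported here. Scripts were tested on simulated data. The alternatives were a pseudocount of 0.1, no filter, quantile, upper-quartile and GC scaling, leaving out hours, doubted libraries or mitochondrially encoded genes, summed lines, and no block.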

Additional observations from a re-analysis of the deposited data

Results flagged for a closer look

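For 4 members the acid difference (pH 6.3 minus pH 7.4, log2) differed between 28 to 52 h and 4 to 24 h by the test of that difference in limma. Late minus early, it changed by -1.23 for CCND1 (adjusted p = 0.000799), by -0.85 for CCND2 (adjusted p = 0.0161), by -1.21 for CDK6 (adjusted p = 0.0267) and by 0.72 for RB1 (adjusted p = 0.0106). The late and early hours came from separately seeded plates, so time in medium and plate set cannot be told apart. Without the 6 libraries of low depth or strong GC dependence and their partners none of the 4 passed, and 2 genes in all did, with 7 hours left in the fit.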

How the results depend on the processing

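Of 216 results for single members of the acid difference under alternatives, 200 kept their side of the threshold. Direction was compared only where a fit was called, so the 200 include changes of sign in differences that did not pass. Such changes were seen for CCND3 (-0.10 without the doubted libraries) and RB1 (0.09 at 28 to 52 h alone). CDKN2C also changed sign, to -0.007 with mitochondrially encoded genes left out. Among the members called over the whole course, CDK6 alone reversed, at 4 to 24 h alone, to 0.0378 (adjusted p = 0.938). With 4 to 24 h as the only hours, 1015 higher genes, 2141 lower genes and 1 lower member were called; leaving out 1 hour gave 2423 to 2785 genes higher, 4175 to 4590 lower and 2 to 3 members lower. RB1 passed with mitochondrially encoded genes left out (-0.34, adjusted p = 0.0279). Scaling shifted the median of all genes by 0.106 (quantile) and 0.113 (GC correction), and the genes called were 37.5% higher as deposited, 48.1% under quantile normalization, 49.2% under GC correction and 29.1% with mitochondrially encoded genes left out (median shift -0.0921). All 3 members called higher stayed higher under the quantile and GC settings, and CCND1 and CDK4 stayed lower.

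For the late-minus-early difference, 0 members were higher and 0 lower without the doubted libraries (2 and 0 genes). CDK4 passed with upper-quartile scaling (-0.93), without the 24 h pair (-1.03) or the 48 h pair (-1.02), and CDK6 did not without the filter (adjusted p = 0.0513). Members climbing at pH 6.3 were 1 in place of 2 with quantile, upper-quartile or GC scaling, and 1 to 2 when 1 hour was left out; CCND2 declined there without the 4 h pair (-0.39, adjusted p = 0.00934). Members climbing at pH 7.4 were 0 in place of 1 without the filter and under quantile normalization, and 0 to 1 when 1 hour was left out. The cause of these changes was not tested.

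Without the replicate block (the hour), 2685 genes were higher and 4492 lower, the same 3 members passed in each direction, and the late-minus-early difference of CDK4 passed (-0.84, adjusted p = 0.0266); the unpaired fit changed no other call of a member. Depth is estimated and limits low values, CDKN1C above all.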
